A study of Eublepharis macularius with 18 samples.

Results

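The genes described here are the zinc finger protein genes that carry a mouse symbol of Zfp followed by a number. The deposited table held 135 such rows among 12376, and the 125 that averaged 10 or more normalized counts across the 18 libraries are the members. The rule used name and mean level only. Bulk poly-A RNA-seq libraries came from the ventricle of 18 leopard geckos (Eublepharis macularius), 3 animals in each of 6 groups, with 1 RNA extraction per animal. The groups were control hearts, sham-operated hearts, and hearts sampled 3, 14, 30 and 100 days post-injury (dpi), where the injury was made with a metal probe cooled in liquid nitrogen. Injured ventricles were sampled beside the injury and the other hearts at a matching place. The labels used here give no strain, age, sex or sequencing batch, and no sampling time after surgery for the sham animals. The study addressed how the gecko ventricle responds to and recovers from such an injury.

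Zinc finger proteins fold short loops around a zinc ion, and most of the genes named Zfp encode arrays of C2H2 fingers that read DNA sequence. Many mammalian members also carry a KRAB domain, which recruits Trim28 and Setdb1 to lay down repressive chromatin over transposons and gene clusters. Others are promoter-binding activators, regulators of lineage choice, ubiquitin or SUMO ligases, or RNA-binding proteins, and the CCCH members of the Zfp36 family bring about decay of AU-rich mRNAs.

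By these roles the 125 members were divided into 2 CCCH mRNA decay genes, 7 RNA, ribosome and spindle genes, 12 lineage genes, 22 widely expressed promoter and chromatin genes and 82 other members, most of them C2H2 genes with no settled role. The lists were drawn up with earlier results of these data known, so the shares called in each are descriptions only. The symbols are those of the mouse genes to which assembled gecko transcripts were matched. In the RefSeq gene table of the gecko assembly MPM_Emac_v1.0, 70 members had a gene of the same name or number and 55 had none. Those 55 include the 4 members with the highest level per transcript length, Zfp988, Zfp113, Zfp980 and Zfp420, so these rows are named here by their mouse symbol only. For the 70, the match was on name or number only. Whether the gecko and mouse genes correspond was not checked. Rows of such a large family may collect reads from more than 1 gecko gene, and their values are uncertain to that extent.

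Per transcript length, the levels spanned a wide range. Mean FPKM (fragments scaled to transcript length and library total) was 335 for Zfp988, 138 for Zfp113, 87.6 for Zfp980, 87.3 for Zfp420 and 71.0 for Zfp326, an RNA-binding protein of splicing complexes. At the other end stood Zfp329 at 0.548, Zfp408 at 0.649, Zfp1 at 0.735, Zfp64 at 0.841 and Zfp217 at 0.844 FPKM. The median member had 5.68 FPKM, against 8.74 FPKM over all 9887 genes tested. Zfp988 alone made up 15.8% to 19.9% of all member counts in a library. Among members, 32 had a mean above 1000 normalized counts and 24 a mean below 100; only 2 had under 3 reads in any library. Just inside the minimum stood Zfp329 with a mean of 12.6 normalized counts, and just outside it Zfp273 with 8.45 and Zfp943 with 8.41; Zfp683 and Zfp770 were listed at 0 throughout.

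The libraries held 12646411 to 34898541 reads, of which 99571 to 311491 fell in members. Members took 0.638% (control animal 3) to 0.981% (30 dpi animal 3) of the normalized counts of a library. Of 10 listed cardiomyocyte markers 9 were measured, with a summed level of 627638 to 1061726 normalized counts, above the highest sum of any other cell type list (114044, smooth muscle). In bulk tissue, fewer cells of a type and less RNA per cell cannot be told apart. Tests below are limma fits over all 18 libraries on log2(normalized count + 1); log2 changes are given ± SE, and a call means an adjusted p below 0.05 (Benjamini-Hochberg, over all genes tested).

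More members were called between late and early injured hearts than in any of the other 9 comparisons. The same held over all genes, with 16.7% called there and 12% or fewer in each of the others. Late against early pools groups on both sides and so sets more animals against each other. At 30 and 100 dpi against 3 and 14 dpi, 26 members were called higher and 1 lower, which is 20.8% and 0.8% of the 125. Over all 9887 genes the background was 9.36% called higher and 7.37% called lower. The median member log2 change was 0.17, against -0.01 over all genes, and 97 of 125 members had a positive change. Zfp318, Zfp292, Zfp72 and Zfp462 had the smallest adjusted p among the rises, and the fall was in Zfp503.

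Against control hearts, 30 dpi hearts had 15 members higher and 1 lower (12.8% called, background 11.3%, of which 7.37% higher and 3.95% lower), and 100 dpi hearts had 21 higher and 2 lower (18.4% called, background 12%, of which 7.56% higher and 4.45% lower). Members called higher made up 12% of the 125 at 30 dpi and 16.8% at 100 dpi. Against sham hearts, the counts were 10 higher and 0 lower at 30 dpi (8% called, background 7.25%, of which 5.9% higher and 1.36% lower) and 9 higher and 4 lower at 100 dpi (10.4% called, background 7.14%, of which 5.54% higher and 1.6% lower). These 4 comparisons share their control or sham libraries in pairs, and those at the same time share their injured libraries. They are therefore not independent of each other, nor of late against early, which uses the same 30 and 100 dpi libraries. Over the 10 comparisons 39 members (31.2%) were called at least once, against 27.8% of all genes, and 86 in none. An F test over all 6 groups called 24 members, or 19.2%, against 16.2% of all genes. The split of higher and lower calls moved with the scaling. After removal of each library's trend on transcript length, the higher and lower counts were 8 and 2 at 30 dpi and 15 and 6 at 100 dpi against control, 4 and 0 at 30 dpi and 4 and 6 at 100 dpi against sham. In the FPKM table they were 13 and 4, and 20 and 6, against control, and 9 and 2 at 30 dpi against sham. At 100 dpi against sham the FPKM table gave 13 calls in all, as did the main fit. The shares of all genes under these settings are not given here, so the counts only show how the member calls moved.

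Single libraries weighed on these counts. Without control animal 3 or 30 dpi animal 3, the 16 calls at 30 dpi against control became 10 each, and without 100 dpi animal 1 the 23 calls at 100 dpi became 13. The 10 calls at 30 dpi against sham became 4, 5 and 6 without sham animal 1, 2 and 3, and 5 and 4 without 30 dpi animal 2 and 3. The 13 calls at 100 dpi against sham became 5, 7 and 8 without sham animal 1, 2 and 3, and 7, 8 and 6 without 100 dpi animal 1, 2 and 3. The F test count of 24 became 15 without 100 dpi animal 2. The late against early count of 27 stayed between 20 and 29 over the 12 fits that each left out 1 animal.

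**Figure D1:**
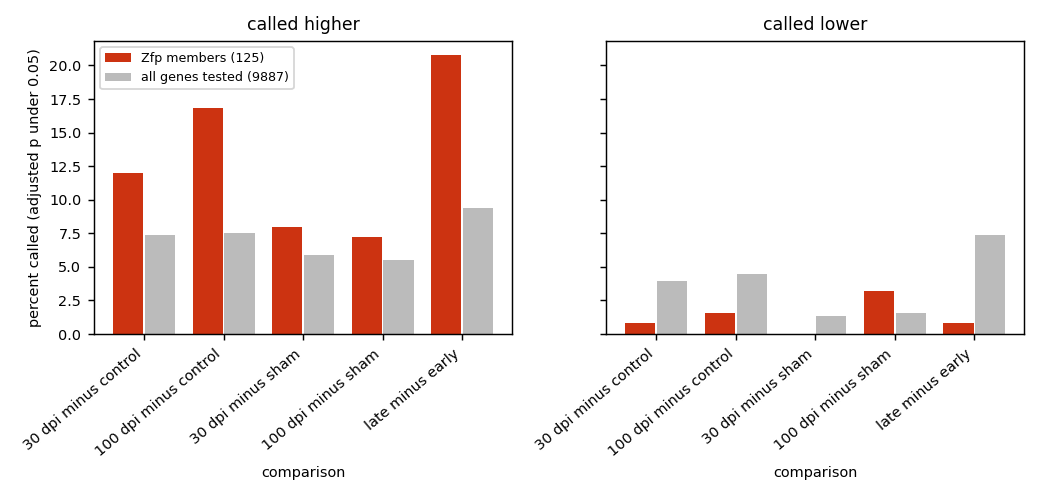
Bars give the percent of genes called higher (left) or lower (right) in each comparison, for the 125 Zfp members in red and all 9887 genes tested in grey. Members exceed all genes among the higher calls in all 5 comparisons, most in late against early hearts (20.8% against 9.36%). Against sham the shares are closer, 8% against 5.9% at 30 dpi and 7.2% against 5.54% at 100 dpi. The comparisons share libraries and are not independent.

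Of the 22 widely expressed promoter and chromatin members, 7 rose at 30 dpi and 8 at 100 dpi against control, where 7.37% and 7.56% of all genes did, and none was called lower. With the length trend removed, the 30 dpi calls of Zfp148, Zfp384, Zfp451 and Zfp618 were lost. At 100 dpi those of Zfp532, Zfp618 and Zfp827 were lost, while Zfp335, named after its values were seen, was newly called lower. In late against early hearts 7 rose and none was called lower (31.8% called, against 16.7% of all genes), and 19 of 22 had a positive change. Zfp318 (ENSMUSG00000015597), a nuclear protein known in mouse for IgD expression in B cells and as an androgen receptor cofactor, had the smallest p of all members in that comparison. Its normalized counts were 405, 351 and 446 in control hearts, 436, 409.7 and 440.1 in sham hearts, 411, 435 and 417 at 3 dpi, 500.2, 470.4 and 438 at 14 dpi, 807, 739 and 886 at 30 dpi and 768, 718 and 811 at 100 dpi. Every library of 30 and 100 dpi lay above every other library. The log2 change was 1.02 ± 0.11 at 30 dpi (adjusted p = 3.65e-05) and 0.94 ± 0.11 at 100 dpi (adjusted p = 7.52e-05) against control, and 0.92 ± 0.11 and 0.84 ± 0.11 against sham. It was 0.82 ± 0.076 in late against early hearts, and each of these 5 calls held in every fit that left out 1 animal.

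Zfp148 (ENSMUSG00000022811), also known as ZBP-89, binds GC-rich promoters. It had 567, 592 and 585 normalized counts at 30 dpi and 647, 652 and 588 at 100 dpi, against 464, 432 and 449 in sham and 423, 363 and 379 in control hearts. The late libraries overlapped neither sham nor control, with log2 changes of 0.58 ± 0.10 at 30 dpi and 0.70 ± 0.10 at 100 dpi against control (adjusted p = 0.00166 and 0.000547). Against sham the 30 dpi call (log2 0.37 ± 0.10, adjusted p = 0.0327) held in 1 of 6 fits that left out an animal. At 3 dpi against control Zfp148 had a log2 change of 0.28 ± 0.10, which did not pass (adjusted p = 0.187).

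Zfp292, first described as an activator of the growth hormone gene, rose at 100 dpi. It had 490.0, 458 and 406 normalized counts there, against 227, 291 and 283 in sham and 228, 266 and 264 in control hearts, with no overlap. Its log2 change was 0.83 ± 0.16 against control and 0.76 ± 0.16 against sham (adjusted p = 0.00403 and 0.00899). At 30 dpi it had 297, 287 and 443 normalized counts, and the change of 0.41 ± 0.16 against control was not called (adjusted p = 0.108).

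Others of this group rose at 1 or both late times against control. Zfp518a had a log2 change of 0.82 at 100 dpi; Zfp532, a partner of the chromatin reader Zmynd8, 0.79; and Zfp827, which brings the NuRD complex to telomeres in human cells, 0.79. These calls held in 6, 6 and 5 of 6 fits with an animal left out, while the calls of Zfp532 and Zfp827 against sham held in 1 and 0 of 6. With the length trend removed, Zfp532 and Zfp827 lost their 100 dpi calls against both control and sham, while Zfp518a kept its call against control. Zfp91, a ubiquitin ligase of noncanonical NF-kB signalling, was called at 30 dpi (0.57 against control, 0.48 against sham), as was the SUMO ligase Zfp451 against control (0.53). With an animal left out, the Zfp91 call held in 6 of 6 fits against control and 2 of 6 against sham, and that of Zfp451 in 1 of 6. Zfp618, a partner of the hydroxymethylcytosine reader Uhrf2, rose at both times, by 0.60 at 30 dpi and 0.46 at 100 dpi. Zfp384, known as Nmp4, was named after its values were seen, rose by 0.46 at 30 dpi, and kept that call in 1 of 6 fits with an animal left out.

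Zfp281, a regulator of pluripotency genes, was scarce and rose at both late times against control. It was called at neither against sham hearts, where its mean was 28.7 normalized counts. It had 70.0, 43.5 and 66.3 normalized counts at 30 dpi and 50.6, 68.8 and 49.2 at 100 dpi, against 24.2, 15.2 and 32.6 in control hearts. The log2 changes were 1.32 ± 0.33 and 1.24 ± 0.33, and the calls held in 4 and 2 of 6 fits with an animal left out. At 3 and 14 dpi it already had 43.9, 33.2 and 51.7 and 39.5, 71.4 and 51.9 normalized counts, all above control, but these differences did not pass (adjusted p = 0.215 and 0.102).

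**Figure D2:**
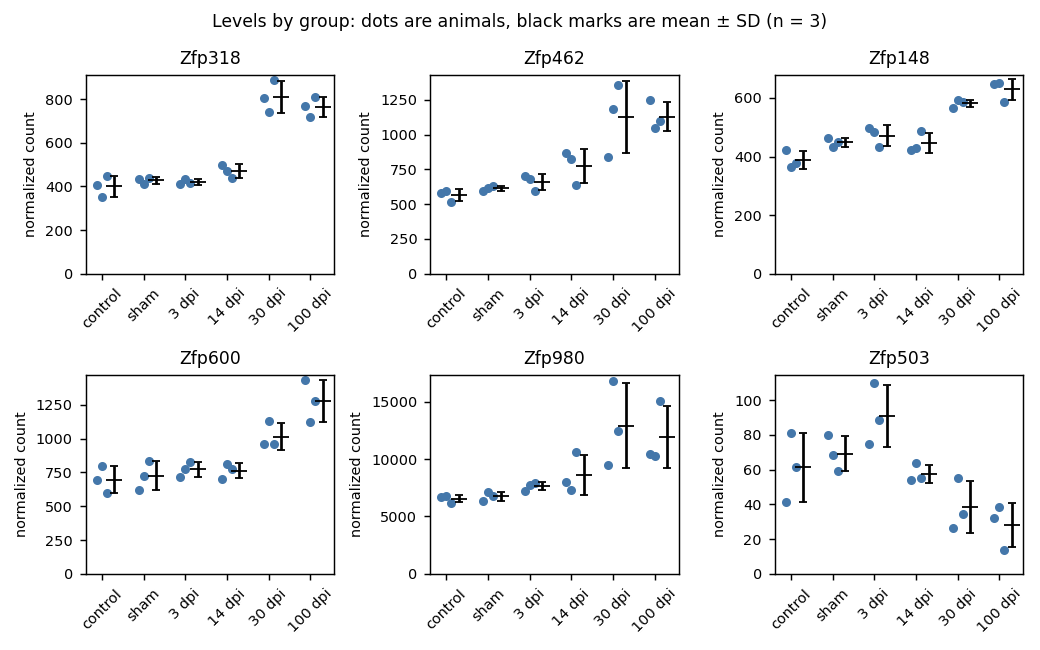
Each panel plots normalized counts of 1 member by group, with a dot for each animal and a black mark for mean ± SD (n = 3). Zfp318, Zfp462, Zfp148, Zfp600 and Zfp980 have their highest group means at 30 or 100 dpi, and Zfp503 its lowest at 100 dpi.

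In the lineage group, 3 of 12 members rose and 1 fell in late against early hearts (33.3% called, against 16.7% of all genes), with a median log2 change of 0.06. Zfp462 (ENSMUSG00000060206), which in mouse restrains lineage genes through heterochromatin, was called in all 4 late comparisons. Normalized counts were 579.8, 597 and 518 in control hearts, 594, 619 and 632 in sham hearts, 702, 679 and 593 at 3 dpi, 866, 825 and 639 at 14 dpi, 841, 1186 and 1355 at 30 dpi and 1250.3, 1046 and 1096 at 100 dpi. The 30 and 100 dpi libraries were above all control, sham and 3 dpi libraries, while the lowest of 30 dpi lay within the range of 14 dpi. Against control the log2 change was 0.97 ± 0.16 at 30 dpi and 1.00 ± 0.16 at 100 dpi (adjusted p = 0.00106 and 0.000887). Against sham it was 0.85 ± 0.16 and 0.87 ± 0.16, and these calls held in every fit that left out 1 animal.

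Zfp608, a repressor of the recombinase genes in mouse thymocytes, and Zfp516, an activator of the brown fat gene Ucp1, rose at 100 dpi against control, by 0.88 and 0.50 on the log2 scale. The Zfp608 call held in 6 of 6 fits with an animal left out. That of Zfp516 held in 2 of 6, and it was lost with the length trend removed and with the compared groups alone. Zfp608 had 767, 667 and 643 normalized counts at 100 dpi, against 585, 502 and 553 in sham and 442, 377 and 316 in control hearts. It is a gene whose sham values also lay above control, and its change at 100 dpi against sham was 0.34 ± 0.18 and not called (adjusted p = 0.296).

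Zfp503 (ENSMUSG00000039081), also called Nolz1, a repressor known from the developing striatum, fell at 100 dpi. It had 41.3, 81.0 and 61.5 normalized counts in control hearts, 79.7, 68.6 and 59.5 in sham hearts, 74.5, 109.8 and 88.8 at 3 dpi, 53.8, 63.7 and 55.3 at 14 dpi, 26.4, 55.4 and 34.3 at 30 dpi and 32.5, 38.4 and 14.0 at 100 dpi. All 3 libraries of 100 dpi lay below all control and sham libraries. Its log2 change was -1.15 ± 0.36 against control (adjusted p = 0.0485) and -1.37 ± 0.36 against sham (adjusted p = 0.0314). Each call held in 2 of 6 fits with an animal left out. The call against control was absent with edgeR, with the length trend removed, with no filter and with the compared groups alone. The call against sham was also absent with the compared groups alone. In late against early hearts the log2 change was -1.19 ± 0.25 (adjusted p = 0.00539), and the call held in 12 of 12.

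Zfp804a, a gene known from human psychiatric genetics and named here after its values were seen, was spread widely. It had 379, 163 and 437 normalized counts at 30 dpi, against 118, 60.9 and 102 in sham hearts. The log2 change of 1.73 ± 0.47 was called (adjusted p = 0.0382) but held in 1 of 6 fits with an animal left out. Zfp423 and Zfp521, regulators of preadipocyte and EBF-dependent fates, were called in no comparison; also named after their values were seen, they had 1039, 901 and 457 and 564, 459 and 259 normalized counts at 3 dpi, against 1021, 1143 and 882 and 456, 402 and 416 in control hearts. For both genes the 3 dpi animal 3 held the lowest value of all 18 libraries.

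Of the 7 RNA, ribosome and spindle members, only Zfp106 was called in the main fit, and only in late against early hearts. Other settings called more of them. With the length trend removed Zfp598, named after its values were seen, was called lower at 30 and 100 dpi against control and 100 dpi against sham. In the FPKM table Zfp207 and Zfp326 were called at 30 and 100 dpi against control, and Zfp326 at 30 dpi against sham. Zfp622 was called in late against early hearts by edgeR and DESeq2. Zfp106 (ENSMUSG00000027288) is an RNA-binding protein whose loss in mouse causes motor neuron and muscle disease. It had 8266, 5702 and 6887 normalized counts at 3 dpi, 5239, 6460.4 and 5819.7 at 14 dpi, 13376, 9630.5 and 11789 at 30 dpi and 7393, 7427 and 14919.8 at 100 dpi. The 3 libraries of 30 dpi and 1 of 100 dpi stood above all others of the 18, while the other 100 dpi libraries lay within the range of 3 dpi. The log2 change was 0.71 ± 0.15 (adjusted p = 0.00575).

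The CCCH decay genes were called in no comparison. Zfp36l1 had 1279, 1047 and 1134 normalized counts at 3 dpi, against 981, 1473 and 1453 in sham and 1046, 1809 and 2318 in control hearts. Zfp36l2 had 2408, 2435 and 1427 at 3 dpi, against 2636, 3017 and 3831 in sham and 2866, 4121 and 2004 in control hearts. The groups overlapped for Zfp36l1 against control and sham, and for Zfp36l2 against control. All 3 dpi libraries of Zfp36l2 lay below all sham libraries (log2 -0.62 ± 0.25, adjusted p = 0.2), and the 3 dpi log2 changes against control were -0.51 ± 0.34 for Zfp36l1 and -0.50 ± 0.25 for Zfp36l2. Control animals themselves differed widely in Zfp36l1, whose highest value, 2752, was in 30 dpi animal 3.

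Among the 82 other members, 15 rose in late against early hearts and none was called lower. That is 18.3% called higher, against 9.36% of all genes. Another 7.37% of all genes were called lower, and no set test was run on these shares. Zfp980 (ENSMUSG00000058186), the third most abundant member per length, had 6733, 6750.5 and 6176 normalized counts in control hearts, 6390.5, 7136 and 6742 in sham hearts, 7259, 7778 and 7874 at 3 dpi, 7959, 7322 and 10621 at 14 dpi, 9477, 16792 and 12476 at 30 dpi and 10467, 10229 and 15033 at 100 dpi. Both late groups lay above control and sham without overlap, and its share of all member counts ran from 4.75% (sham animal 3) to 11.7% (30 dpi animal 2). The log2 change was 0.94 ± 0.19 at 30 dpi and 0.84 ± 0.19 at 100 dpi against control (adjusted p = 0.005 and 0.0106). With an animal left out, both of these calls held in 6 of 6 fits. The calls against sham held in 6 of 6 at 30 dpi and 4 of 6 at 100 dpi. Both calls against sham were lost with the length trend removed. The 30 dpi call against sham was also lost in the FPKM table and with the compared groups alone.

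Zfp600 (ENSMUSG00000066007) and Zfp616, members with no gecko gene of the same number, were called in the same 4 late comparisons. Zfp600 had 957, 1128 and 958 normalized counts at 30 dpi and 1429, 1121 and 1275 at 100 dpi, against 619, 726 and 835 in sham and 695, 794 and 596 in control hearts. Its 100 dpi libraries were above those of all other groups except that 1 of them lay below the highest of 30 dpi. The log2 change at 100 dpi was 0.88 ± 0.14 against control and 0.81 ± 0.14 against sham, held in 6 of 6 fits with an animal left out in each case. At 30 dpi its calls held in 4 of 6 such fits against control and 2 of 6 against sham. Zfp616 rose by 0.60 and 0.62 at 30 and 100 dpi against control, and Zfp72 by 0.75 and 0.61, all held in 6 of 6 fits. Against sham, the Zfp616 calls at both times and the Zfp72 call at 30 dpi held in 2 of 6.

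Further rises were spread over genes of this group for which no role is given here. At 30 dpi against control Zfp12, Zfp286 and Zfp534 rose by 0.58, 0.51 and 0.41 on the log2 scale, held in 4, 1 and 2 of 6 fits with an animal left out. At 100 dpi against control Zfp300, Zfp534, Zfp654, Zfp944 and Zfp112 rose by 0.49, 0.47, 0.55, 0.50 and 0.40, held in 5, 3, 3, 2 and 1 of 6. In late against early hearts Zfp512b, Zfp12, Zfp286 and Zfp654 were called in all 12 fits with an animal left out, Zfp420 in 8 of 12, Zfp180 in 6 and Zfp612 in 3. Zfp512b, Zfp236, Zfp989 and Zfp40 also passed in at least 1 comparison; the last 3 were named after their values were seen.

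Falls were few outside Zfp503. Zfp280d had 1343, 1197 and 1271 normalized counts at 100 dpi, against 1623, 1748 and 1493 in sham and 1593, 1686 and 1679.5 in control hearts, without overlap. Its log2 change was -0.38 ± 0.094 against control and -0.35 ± 0.094 against sham, held in 3 and 1 of 6 fits with an animal left out. Zfp319 was lower at 100 dpi only against sham, with 250.3, 221 and 225 normalized counts against 317, 352 and 345 in sham hearts (log2 -0.54 ± 0.15, adjusted p = 0.0423). That call held in 0 of 6 fits with an animal left out, and control hearts had 234, 273 and 251. Zfp282, named after its values were seen, was called in the main fit against sham only (log2 -0.44 ± 0.13, held in 1 of 6). At 100 dpi against control it was called in the FPKM table, by DESeq2 and without 100 dpi animal 2.

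Zfp329 was called lower at 30 dpi, where all 3 libraries were at 0, against 36.2, 33.4 and 10.9 normalized counts in control hearts. Set against a floor of 3 reads per library at 30 dpi, the control mean was at least 7.44-fold higher. Zfp329 was also at 0 in 3 libraries of the sham and 14 dpi groups and reached 48.4 in 14 dpi animal 3; the call held in 1 of 6 fits with an animal left out and was absent with edgeR.

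**Figure D3:**
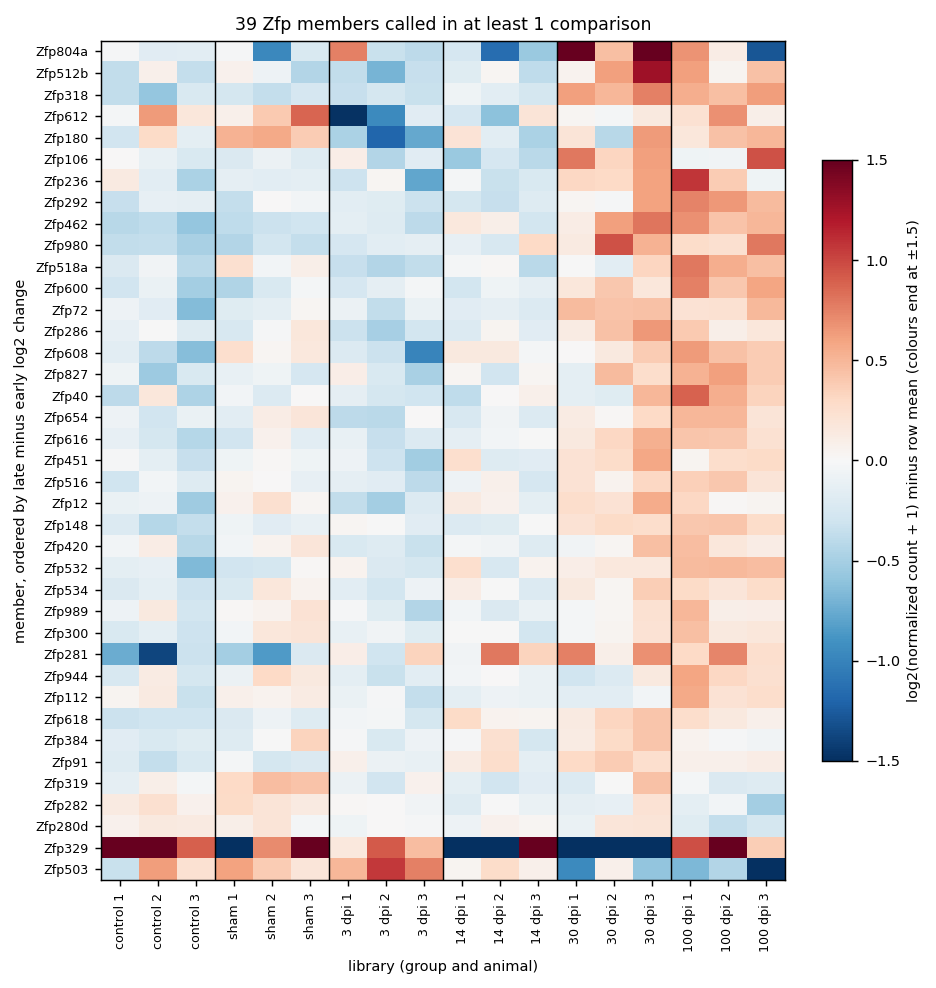
Rows are the 39 members called in at least 1 comparison, ordered by their late minus early log2 change, and columns are the 18 libraries by group. Colour gives log2(normalized count + 1) minus the row mean, with colours ending at ±1.5; the 30 and 100 dpi columns are mostly red in the upper rows, and Zfp503 in the bottom row is lowest in 100 dpi animal 3.

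No member was called at 3 or 14 dpi against control or sham, or in sham against control hearts. The background in these comparisons was 0.334% (3 dpi) and 0.89% (14 dpi) against control, 0.971% and 0.738% against sham, and 0% for sham against control. At an unadjusted p under 0.05 limma gave 11 members at 3 dpi against control (8.8%, against 15.8% of all genes) and 16 at 14 dpi (12.8%, against 16.6%). Against sham it gave 29 at 3 dpi (23.2%, against 19.2%) and 16 at 14 dpi (12.8%, against 12.8%). For sham against control it gave 10 (8%, against 4.84%). On the recovered reads, edgeR called 0 members in each of these 5 comparisons, and DESeq2 called 1 and 4 at 3 and 14 dpi against control, 7 and 1 against sham, and 0 for sham against control. The shares of all genes called by these methods are not given here.

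The member medians nevertheless differed from those of all genes. In sham against control hearts the median log2 change was 0.15, with 100 of 125 positive, against 0.00 over all genes; 20 members (16%, background 5.78%) had all sham libraries above all control libraries and 0 (background 6%) the reverse. At 3 dpi against sham the median was -0.21, with 29 of 125 positive, against 0.00 over all genes; 40 members (32%, background 11.7%) had all 3 dpi libraries below all sham libraries and 5 (4%, background 13.2%) the reverse. In the sham against control comparison 0 of 12 immediate early genes had a positive change (median log2 -1.19), and their part in the member values was not tested. At 14 dpi against sham the median was -0.16, and 23 members (18.4%, background 11%) were lower without overlap. The 3 dpi median against control was -0.08. The sham libraries enter the sham against control and both early against sham comparisons. With 3 animals against 3 and no member past the adjusted threshold, the shifts are given as a description.

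Zfp143, an activator bound at many housekeeping promoters and called by the F test alone, had 123, 125 and 120.1 normalized counts at 3 dpi, against 186, 175 and 202 in sham and 231, 160.0 and 173 in control hearts. The 3 dpi libraries lay below all of these, with log2 changes of -0.60 ± 0.16 against sham and -0.59 ± 0.16 against control (adjusted p = 0.0789 and 0.103). The scarce Zfp1 went the other way at 3 dpi against control. Its group means were 39.0 and 16.8 normalized counts, without overlap. The limma log2 change of 1.23 ± 0.36 did not pass (adjusted p = 0.123). Zfp113, the second most abundant member per length, had 6506, 6079 and 5842 at 3 dpi, against 7721, 8743 and 9106 in sham hearts, a log2 change of -0.47 ± 0.11 that missed the threshold (adjusted p = 0.0544). Zfp180 and Zfp612 had their lowest group means at 3 dpi, 21.2 and 27.4 normalized counts, against 52.7 and 66.7 in sham hearts (adjusted p = 0.0544 and 0.0692). Both rose in late against early hearts. At 3 dpi against sham, Zfp143, Zfp113, Zfp180 and Zfp612 were each called with the length trend removed and by DESeq2. None of them was called there by edgeR or in the other settings. DESeq2 also called Zfp143 at 3 dpi against control.

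At 14 dpi the smallest p against control belonged to Zfp618, with 1077, 917 and 909.6 normalized counts against 707, 718 and 718 in control hearts (log2 0.43 ± 0.10, adjusted p = 0.063). Zfp277 had 233, 361 and 306 against 476, 519 and 407 in control hearts (log2 -0.65 ± 0.18, adjusted p = 0.0968). In both cases the groups did not overlap. Zfp574 was lower at 14 dpi than in control and sham hearts, also without overlap. Its limma log2 changes were -0.41 ± 0.14 and -0.46 ± 0.14 (adjusted p = 0.179 and 0.172), which did not pass.

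**Figure D4:**
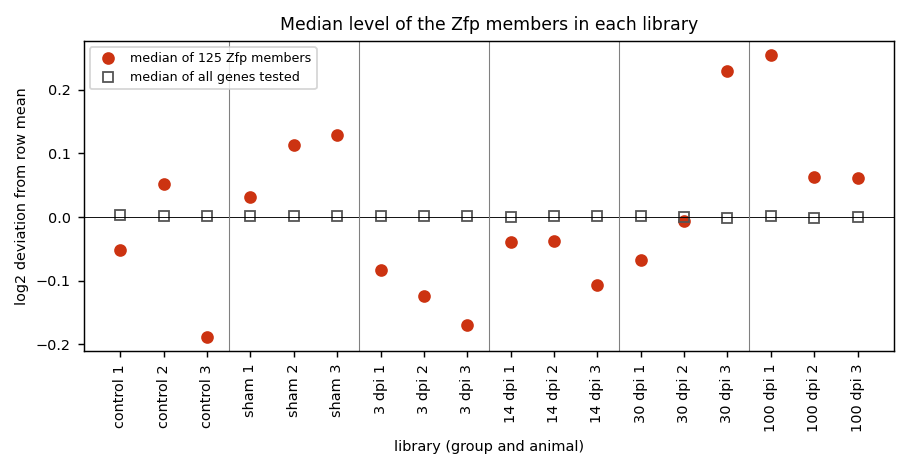
Each red dot is the median log2 deviation of the 125 members from their row means in 1 library, and each open square the same over all 9887 genes tested. The member medians run from -0.19 (control animal 3) to 0.25 (100 dpi animal 1), while the medians over all genes stay near 0.

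Animals of 1 group differed by as much as these medians. The member median was -0.19 in control animal 3 and 0.05 in control animal 2, and it was 0.23 in 30 dpi animal 3 and -0.07 in 30 dpi animal 1. Libraries also differed in how deviation ran with transcript length. Per doubling of length the slope over all genes was 0.19 in 30 dpi animal 3, 0.13 in 30 dpi animal 2 and -0.09 in control animal 3. It also ran with group, from 0.02 to 0.19 at 30 dpi and 0.01 to 0.07 at 100 dpi. The range was -0.03 to 0.01 at 14 dpi and -0.06 to -0.03 at 3 dpi. In sham hearts it was -0.05 to -0.02 and in control hearts -0.09 to -0.05. Every late library thus had a positive slope, and every control, sham and 3 dpi library a negative one. Members ran longer than the median gene (median relative length 1.13), and the 27 called in late against early hearts had a median of 1.71, against 1.10 in the 98 not called.

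Calls in late against early hearts were more frequent among longer members. Of the 42 shortest members 3 rose (7.14%), of the 41 in the middle 8 (19.5%) and of the 42 longest 15 (35.7%). All tested genes were divided among the same 3 ranges, with no limit at the outer ends, so the lengths are matched only roughly. Their shares were 2.34%, 7.04% and 20.3%, below those of the members in each range. The part of length in the member calls was not tested. With the length trend removed, 29 members were called in late against early hearts and 25 of the 27 were among them. Zfp532 and Zfp827 were lost, and the share of all genes called in that setting is not given here. At 30 dpi against control 8 of the 16 calls were kept, and Zfp148, Zfp600, Zfp616 and Zfp618 were among those lost.

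**Figure D5:**
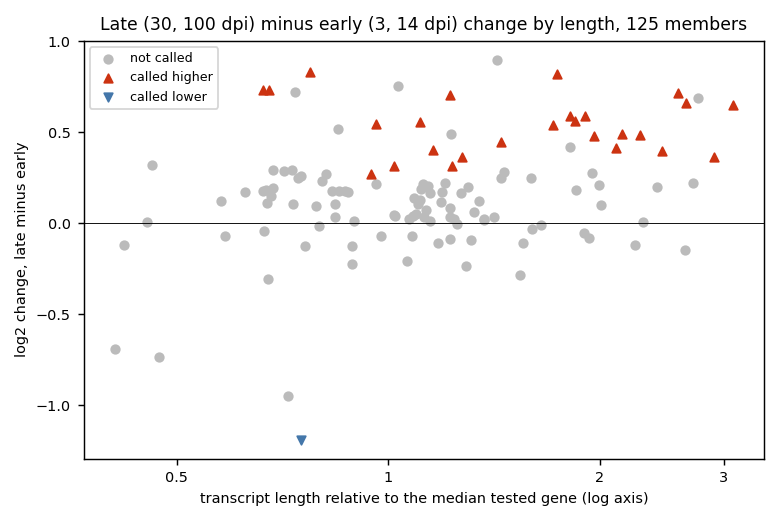
Each point is 1 of the 125 members, with transcript length relative to the median tested gene on a log axis and the late minus early log2 change on the vertical axis. Members called higher (red triangles) are spread over the length range and are denser to the right, and Zfp503 (blue triangle) is the only one called lower.

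Genes through which KRAB zinc finger proteins act in mammals were counted at about the background. Of 32 measured partner genes, 4 rose and 2 fell in late against early hearts (18.8% called, against 16.7% of all genes), with a median log2 change of -0.06. Trim33, a ubiquitin ligase related to Trim28, had 660.3, 676 and 635 normalized counts at 30 dpi and 898, 648 and 708 at 100 dpi, against 498, 499 and 393 in control hearts (log2 0.51 and 0.69, adjusted p = 0.0244 and 0.00494). Tasor, the scaffold of the HUSH silencing complex, had 2363, 2235 and 2673 at 30 dpi and 2632, 2286 and 2438 at 100 dpi, against 1715, 1653 and 1736 in control hearts. Its 3 libraries of each late time lay above all control libraries, with log2 changes of 0.51 and 0.52. Atf7ip, which stabilises Setdb1, was called at 100 dpi (log2 0.69), while the deacetylase Hdac2 and the methyl-DNA reader Mbd2 fell at 30 dpi (log2 -0.42 and -0.61).

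Other zinc finger families were counted in the same comparison. Of 33 BTB and SCAN genes 8 rose and 1 fell (27.3% called), and of 39 CCCH, CCHC and DHHC genes 7 rose and none was called lower (17.9% called). These shares are set beside the 21.6% of Zfp members and 16.7% of all genes, and no difference between families was tested.

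Markers of other cell types moved in the same comparison. In late against early hearts, 0 of 9 fibroblast and matrix markers had a positive change and 5 fell, and 4 of 6 smooth muscle and 5 of 6 epicardial markers fell, where 7.37% of all genes were called lower. Of 6 endothelial markers Cdh5 and Kdr rose and Vwf fell, with a median log2 change of 0.02. Of 4 erythrocyte markers 1 rose and 1 fell, of 4 Schwann cell markers 1 fell, and none of the 7 cell division, 2 macrophage or 1 lymphocyte markers measured was called. The summed endothelial level was 7213 to 8888 normalized counts at 3 dpi, 5894 to 8014 at 14 dpi, 7475 to 7987 at 30 dpi and 8836 to 12177 at 100 dpi. The summed fibroblast and matrix level was 56526 to 79977 normalized counts at 3 dpi, 83007 to 89759 at 14 dpi, 27197 to 72108 at 30 dpi and 27974 to 44084 at 100 dpi. The summed epicardial level was 1342 to 5423 at 3 dpi, 985 to 2684 at 14 dpi, 599.7 to 887 at 30 dpi and 431 to 691 at 100 dpi. Of 9 cardiomyocyte markers Ttn rose, Nkx2-5 fell, and the median log2 change was -0.04. Per library, the median deviation of 12 immediate early genes was -0.76 to -0.05 at 3 dpi and -1.06 to 0.21 at 14 dpi. It was -0.65 to 1.38 at 30 dpi and -0.18 to 1.02 at 100 dpi. The part of these cell types and of immediate early genes in the member changes was not tested.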

How the data were processed

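Poly-A RNA of 18 gecko ventricles, 3 animals in each of 6 groups, was analysed from the deposited tables. HISAT2 2.2.0, StringTie 2.2.1 and Salmon 1.8.0 were used, per the submitters' processing notes; per the labels reads were aligned to a gecko genome, transcripts were assembled and then annotated with mouse genes. The authors deposited a normalized count table (a read signal per gene) and an FPKM table; how the counts were normalized is not given in the sources used here. The deposited normalized counts of a library were all multiples of a single step, with 0 values more than 0.1 read off a whole number. Dividing by it recovered whole reads, and the reciprocals of the steps matched median-of-ratios factors. The recovered reads summed to 12646411 to 34898541 per library. Relative transcript length is the ratio of normalized count to FPKM.

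The 9887 genes averaging 10 or more normalized counts (2489 others left out) entered 1 limma-trend fit (limma 3.58.1, R 4.3.3) on log2(normalized count + 1) with group as the only term (12 residual and 3.61 prior degrees of freedom). Tests were two-sided with Benjamini-Hochberg adjustment over all genes tested; log2 changes on this scale understate changes of low genes. Where 3 animals are set against 3, an exact two-sided permutation p is 0.1 or more, so those calls rest on the model. That bound does not apply to late against early or to the F test, whose calls also come from the model. A floor of 3 reads covers counting error only. Alternatives were pseudocounts of 0.1 and 10, no filter, TMM factors, the FPKM table (with 0.1 added, above a mean of 0.5), fits of the compared groups alone, the replicate number as a block, removal of each library's trend on length, edgeR 4.0.16 (quasi-likelihood) and DESeq2 1.42.0 on recovered reads, and each library left out. No set test was run.

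Members, role lists and tests were chosen with earlier results of these data known. The naming rule took the CCCH decay genes, up to 30 called members by F-test p, and the 2 smallest p per direction and comparison. It also took the 5 highest and 5 lowest by FPKM, members beside the minimum, and up to 8 called partner genes. Zfp407 and Zfp410 met the rule on smallest p but are not described. Others are said to be named after their values were seen.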

Additional observations from a re-analysis of the deposited data

Results flagged for a closer look

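The difference between injured and control hearts was not the same at late and early times for 27 members: a direct test of 30 and 100 dpi against 3 and 14 dpi, which is the difference of their differences from the shared controls, passed for 26 members that were higher at the late times and for Zfp503, which was lower (limma, adjusted over all genes). The share is 21.6% of members, against 16.7% of all genes tested.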

How the results depend on the processing

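The late against early count of 27 members ran from 23 to 34 over the settings tried and from 20 to 29 with 1 animal left out. In fits of the compared groups alone, the counts were 1 at 14 dpi, 5 at 30 dpi and 15 at 100 dpi against control and 3 at 30 dpi against sham; such fits have fewer samples behind each spread. Numbers 1 to 3 name separate animals, and same-numbered libraries did not deviate together (45 pairs, r from -0.18 to 0.23, 5 of 18 libraries closest to their own number). With the replicate number as a block the counts were 1 at 14 dpi (Zfp277), 14 at 30 dpi and 21 at 100 dpi against control, 7 and 10 against sham, 26 for late against early and 20 by the F test. With the length trend removed the counts were 10 at 30 dpi against control, and 4, 1 and 4 at 3, 14 and 30 dpi against sham, and the 14 dpi median against sham was -0.21, against -0.16 as reported. DESeq2 gave 1 and 4 at 3 and 14 dpi against control, 7 and 1 against sham and 47 by the F test; edgeR gave 17, 22, 10, 13, 27 and 28 in the 6 tests with calls. The cause of these moves was not tested, and the shares of all genes called under these settings are not given here.

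With 1 animal left out, counts ran from 10 to 21 at 30 dpi and 13 to 21 at 100 dpi against control, 4 to 11 and 5 to 8 against sham, and 15 to 29 by the F test; they stayed at 0 at 3 and 14 dpi and for sham against control. Pseudocounts, TMM factors, the FPKM table and no filter kept every count within 1.5 times. No named change reversed its sign among those called. Of 107 named calls, partner genes included, 40 were lost with the length trend removed, 42 with the compared groups alone, 14 each in the FPKM table and with the block, and 0 with DESeq2. Depth limits the 24 members below 100 normalized counts most.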

Other observations

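Zfp367, a member singled out after its values were seen, was high in the libraries where cell division markers were high. It had 36.2, 41.5 and 19.9 normalized counts in control hearts, 25, 137 and 173 in sham hearts, 54.1, 38.7 and 118 at 3 dpi, 229.7, 171 and 116 at 14 dpi, 42.5, 44.8 and 43.5 at 30 dpi and 31.5, 34.8 and 227 at 100 dpi. The 14 dpi change against control was 2.38 ± 0.73 on the log2 scale and was not called by limma (adjusted p = 0.127), while DESeq2 and the limma fit of the compared groups alone called it. The median deviation of 7 cell division markers was 2.38 in 100 dpi animal 3, 2.23 in sham animal 3, 2.23 and 2.01 in 14 dpi animals 2 and 1, and 1.19 in 3 dpi animal 3. In each of these libraries Zfp367 was above 100 normalized counts, as it also was in sham animal 2 and 14 dpi animal 3, whose marker medians were 0.32 and 0.68; in all other libraries it was below 60 and the marker median at or below 0.03. The part of dividing cells in the Zfp367 values was not tested.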
